A study of Mus musculus with 1152 samples.

Results

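Upstream-valve-like lymphatic endothelial cells (LECs) were the 73 cells, 11.1% of the cells in the expression table (exact 95% interval 8.82 to 13.8%), whose score for Cldn11, Gata2, Neo1, Fxyd2 and Gdf10 exceeded their scores for 5 other LEC classes. A score was the mean, over the genes of a class, of each gene's z-score across all cells. The members were thus chosen by the measured levels of the rule genes, and those levels are given as a description. The cells came from the nasopharyngeal mucosa of aged C57BL/6 mice, wild-type and untreated as far as the labels and methods state, whose tissue was pooled before sorting. The methods state that both sexes were used, but no cell had a Y-linked read without Xist. CD31+ PDPN+ cells had been sorted 1 to a well and sequenced by Smart-seq3, a full-length single-cell RNA method, and 56.9% of the labelled cells were in the table analysed here. Because no label names the animal of a cell, all cells count as 1 pooled sample. No difference below was therefore tested, every SD is over cells, and every interval covers counting error only.

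Lymphatic valves are paired leaflets of endothelium on a matrix core that keep lymph from flowing back. The endothelium of the upstream and the downstream face of a leaflet meets different flow, and valve cells carry high levels of the lymphatic transcription factor Prox1 together with Foxc2 and Gata2. Connexins, fibronectin, laminin α5 and integrin α9 belong to the known machinery of valve formation, whereas Lyve1 marks initial lymphatics and is low in valves and collecting vessels.

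Members had 7754 to 10727631 reads per cell with a median of 106747, against a median of 156481 in the other cells. They had a median of 3814 detected genes against 3948. Mitochondrial genes took a median of 1.71% of reads in members and 1.40% in the other cells. Because depth differed, detection was also computed with each cell thinned to 20000 reads, which 59 members reached and 14 did not. In the text a level is the natural log of 1 plus reads per 10000, and a fold is a ratio of the mean reads per 10000 with 0.1 added to each mean. A gene was counted as higher or lower when its fold was at least 1.5 and at least 10% of the cells on the higher side held a read.

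Cldn11, a tight-junction claudin at chr3:31149920-31164324 on GRCm38 (mm10), was the marker that most members carried. It had a read in 61 of 73 members (83.6%) and in 55.1% of other cells, with levels of 1.48 ± 0.998 (SD over 73 cells) and 0.530 ± 0.758. Member levels ran from 0 to 3.82 with a median of 1.55 and reached 3.35 in other cells, so the groups overlapped. Gata2, a zinc-finger transcription factor needed for valve formation, had a read in 43 members (58.9%) and in 39.3% of other cells, and its fold of 2.59 was the lowest of the 5 markers. Of the downstream-valve-like cells, 1 of the other classes, 50.8% had a Gata2 read, and the fold of Gata2 against them was 1.54.

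The other 3 markers were rarer outside the class. Fxyd2, a regulatory subunit of the sodium pump at chr9:45399669-45410278, had a read in 47 members (64.4%) and in 8.92% of other cells, with levels of 0.990 ± 1.05 and 0.026 ± 0.129. Gdf10, a secreted ligand of the TGF-β superfamily, had a read in 41 members (56.2%) and in 11.7% of other cells. Neo1, which encodes neogenin, a receptor for netrins and repulsive guidance molecules at chr9:58874687-59036441, was also found in 41 members, against 11.8% of other cells. The folds were 28.8 for Fxyd2, 18.3 for Gdf10 and 16.8 for Neo1. At 20000 reads, Fxyd2 was seen in 62.7% of members and 1.96% of other cells, and Neo1 in 49.2% and 2.95%.

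**Figure D1:**
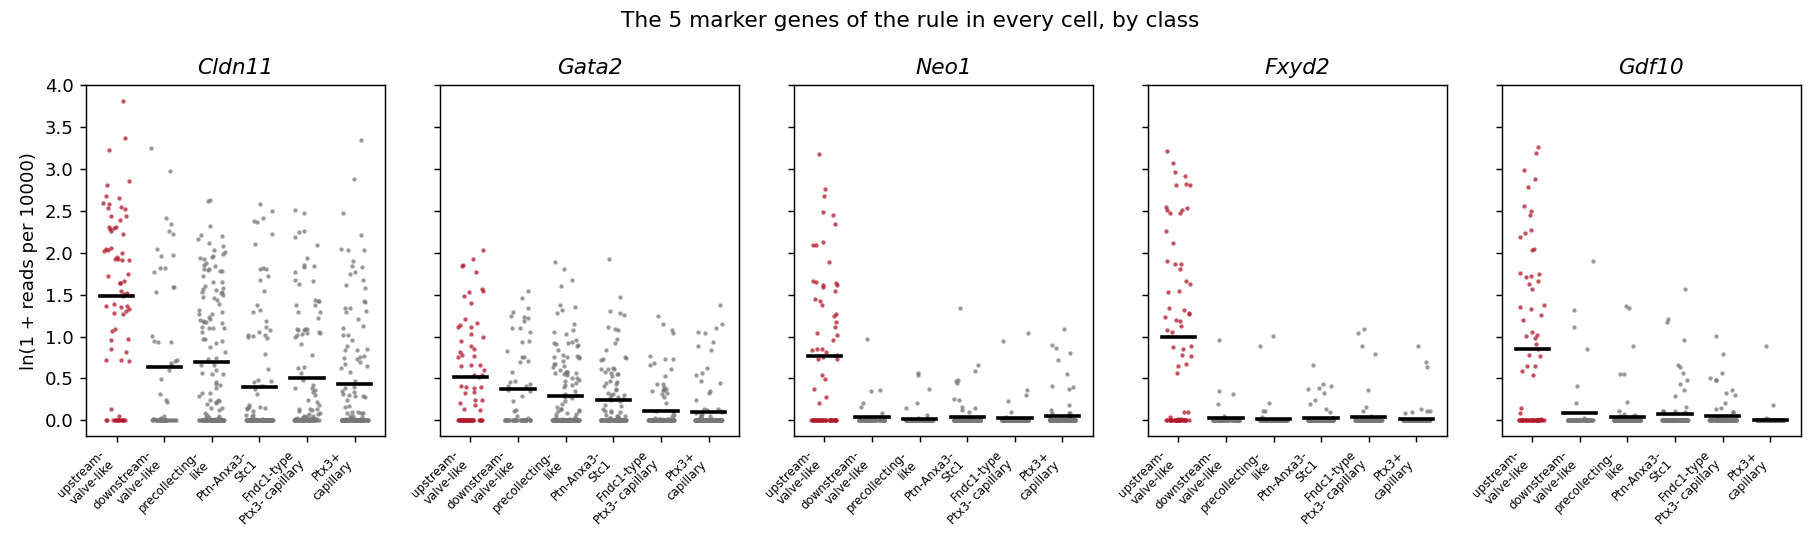
Each point is 1 cell, the vertical axis is the level as ln(1 + reads per 10000), and black bars are class means for the 5 genes of the rule. Fxyd2, Neo1 and Gdf10 lie at or near 0 in most cells of the other 5 classes, whereas Cldn11 and Gata2 are spread over all 6.

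Few members carried the whole marker set. All 5 markers had a read in 13 members and in 2 other cells, and at least 3 had one in 49 members and in 57 other cells. No member lacked all 5, as did 22.8% of other cells. Within the 73 members the levels of Neo1 and Fxyd2 moved together with a Spearman rho of 0.56, whereas rho for the other 9 pairs ran from -0.13 to 0.22. In the other cells rho was 0.10 for Neo1 and Fxyd2 and -0.06 to 0.16 for the other 9 pairs. The members were chosen by the mean of these same 5 genes, which can itself change rho, so the values are a description only. The cells share a library method and differ in depth, and no p-value was computed for these values.

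The score itself was graded. It led the next class score by 0.010 to 4.43 with a median of 0.635. The lead was at least 1 in 30 members, 0.25 to 1 in 22 and under 0.25 in 21, and in 32 cells just outside the class another score led the upstream-valve one by under 0.25. The 5 members nearest the boundary led by 0.010 to 0.022 and carried 2 to 4 markers, and the 5 nearest cells outside missed by 0.003 to 0.025 with 1 to 3 markers. The next score was the downstream-valve one in 35 members, the Ptn-Anxa3-Stc1 one in 13, the precollecting one in 11, the Ptx3- capillary one in 10 and the Ptx3+ capillary one in 4. Median reads were 161466, 32161 and 41718 in the 3 groups of falling lead and 107532 in the cells just outside. The part of depth in the grading was not tested.

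The study annotated whole clusters, as upstream-valve LECs by Cldn11 without Gja4 and as downstream-valve LECs by both genes. The shares here count reads in single cells, which is a different measure. Gja4, the gap-junction protein connexin 37 at chr4:127311421-127314039, is 1 of the 5 genes of the downstream-valve score. Of the 73 members, 28 had Cldn11 and no Gja4 read (38.4%, 27.2 to 50.5%), 33 had both (45.2%), 7 had Gja4 only and 5 had neither. Of the 63 downstream-valve-like cells, 7 had Cldn11 only (11.1%, 4.59 to 21.6%), 28 had both and 22 had Gja4 only. At 20000 reads the Cldn11-only share was 49.2% of members and 5.66% of downstream-valve-like cells. Cldn11 is a gene of the members' score and Gja4 of the downstream-valve score, so the choice of cells favours this difference. With all reads, 21.3% of all other cells had Cldn11 only, and 18.5% at 20000 reads. The highest share outside the members was in Ptx3- capillary-like cells, at 29.1% with all reads and 24.3% at 20000 reads. With all reads its interval overlapped that of the members. A Gja4 read was found in 54.8% of members with all reads and in 42.4% at 20000 reads, so whether most members were Gja4-negative depended on depth. The mean Gja4 level was 0.567 ± 0.792 in members, 0.629 ± 0.861 in all other cells and 1.40 ± 1.09 in downstream-valve-like cells. Among members with a lead of at least 1, Gja4 had a read in 14 of 30 and a mean level of 0.311 ± 0.620.

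**Figure D2:**
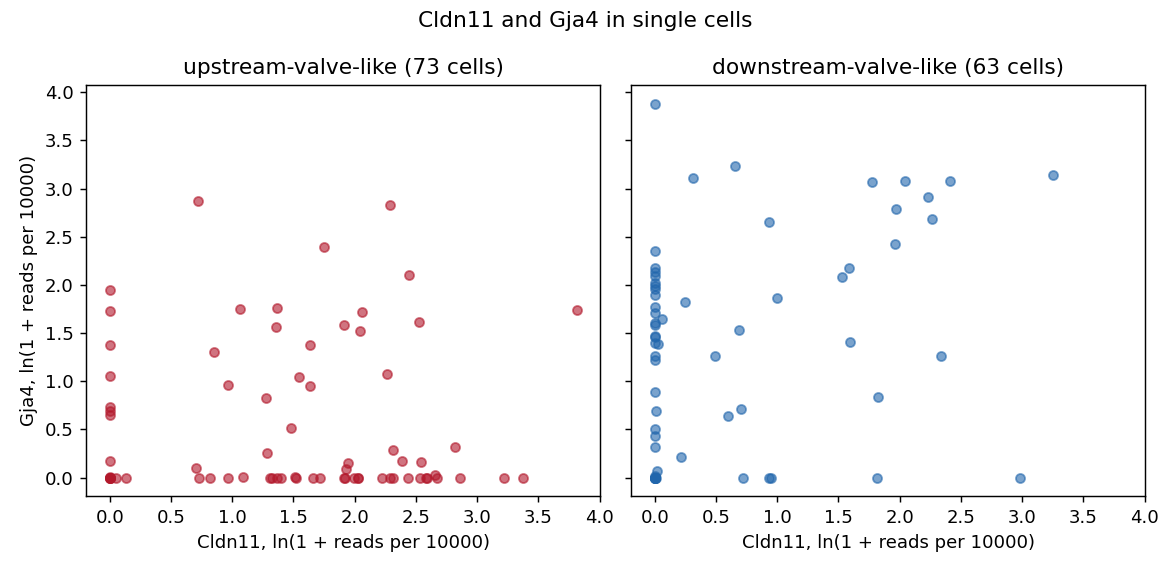
Each point is 1 cell, with the Cldn11 level on the horizontal and the Gja4 level on the vertical axis, both as ln(1 + reads per 10000). Of the 73 upstream-valve-like cells 28 lie on the lower edge with Cldn11 and no Gja4, and of the 63 downstream-valve-like cells 7 do.

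The remaining genes of the downstream-valve score did not follow 1 direction in members. Foxc2, a forkhead factor of valve and collecting-vessel cells, had a read in 12 members (16.4%), in 15.8% of all other cells and in 55.6% of downstream-valve-like cells. Clu, which encodes the secreted chaperone clusterin, was 2.14 times lower in members than in all other cells and 7.24 times lower than in downstream-valve-like cells. Angpt2, a ligand of the Tie2 receptor, went the other way, with levels of 1.62 ± 1.29 in members, 0.993 ± 1.11 in all other cells and 1.03 ± 1.11 in downstream-valve-like cells. It was 2.23 times higher in members than in all other cells and higher in each of the 10 blocks of cell numbers described below. Itga9, the integrin α9 chain, was at 0.750 ± 0.630 in members, 0.678 ± 0.671 in all other cells and 1.09 ± 0.771 in downstream-valve-like cells. Against the downstream-valve-like cells, which were chosen by these genes, Foxc2, Clu and Itga9 were lower in members and Angpt2 was higher.

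Across the 10131 genes considered, 5.9% were higher in members than in all other cells and 9.75% were lower. The median log2 fold over these genes was -0.02. The 20 genes named next have the largest folds outside the 31 rule genes among those with a read in at least 30% of members. They were picked for their fold, so each value describes these cells and supports nothing. In all 20, members had the highest mean level of the 6 classes.

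Gdf15 and Slc41a1 stood first. Gdf15, a stress-induced ligand of the TGF-β superfamily at chr8:70629393-70632456, had a read in 60 members (82.2%) and in 54% of other cells. Its levels in members ran from 0 to 5.53 with a median of 1.96 and a mean of 1.99 ± 1.68, against a mean of 0.410 ± 0.807 and a maximum of 4.28 in other cells. The fold was 12.7, or 11.1 without the highest member, and 15.1 at 20000 reads. Precollecting-like cells came next with a mean of 0.656. Slc41a1, a magnesium transporter at chr1:131827493-131848865, had a read in 64 members (87.7%) and in 68.3% of other cells. Its mean level was 1.86 ± 1.34 in members with a median of 1.74 and a maximum of 4.32, and 0.549 ± 0.711 in other cells, a fold of 8.36. Both distributions overlapped with those of the other cells, and both genes were higher in members in 10 of 10 blocks.

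Those of the 20 that encode matrix, secreted or adhesion proteins are given next. Lama5, the laminin α5 chain of basement membranes at chr2:180176373-180225859, had a read in 30 members (41.1%) and in 18.5% of other cells. Its fold was 5.91 and fell to 4.64 without the highest cell, which gave 23.7% of the members' sum. Sbspon, a secreted protein with a thrombospondin repeat, had a read in 38.4% of members and 7.89% of other cells with a fold of 5.92. Plat, which encodes tissue plasminogen activator, had levels of 1.92 ± 1.36 in members and 0.754 ± 0.945 in other cells, a fold of 4.64. Angptl2, a secreted angiopoietin-like protein, had a fold of 4.10, and Sdc4, the heparan sulfate proteoglycan syndecan 4, a fold of 4.06. Esam, an adhesion molecule of endothelial tight junctions, had a read in 69.9% of members and 47.7% of other cells with a fold of 3.17.

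The rest of the 20 encode cell-surface, metabolic and signalling proteins. Slc6a6, the taurine transporter, had a fold of 4.80 and Slc5a3, the sodium and myo-inositol cotransporter, a fold of 4.14. Cd24a, a small surface glycoprotein, had levels of 1.81 ± 1.24 in members and 0.731 ± 0.913 in other cells. Nupr1, a stress-induced nuclear protein, had a read in 91.8% of members and 65.4% of other cells with a fold of 3.78. Odc1, the rate-limiting enzyme of polyamine synthesis, had a fold of 3.68, and B4galt4, a galactosyltransferase, a fold of 5.0. Net1, an exchange factor for RhoA, Tub, Osbpl1a, Arl15 and the cyclic-nucleotide phosphodiesterase Pde1b had folds of 2.99 to 3.66. Atg101, a subunit of the autophagy-initiating kinase complex, had a fold of 3.91 that was 2.26 without the highest cell, which gave 44.5% of the members' sum.

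**Figure D3:**
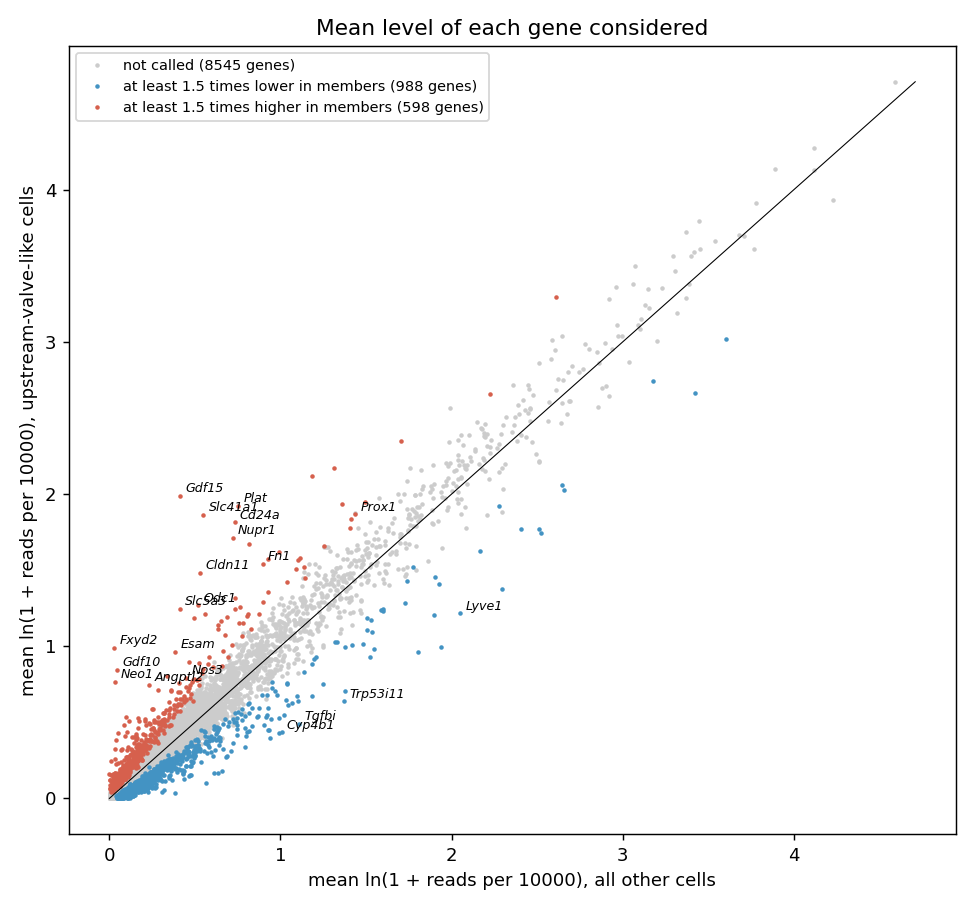
Each point is 1 of 10131 genes, with its mean level as ln(1 + reads per 10000) in the other cells on the horizontal axis and in the 73 members on the vertical axis. Red points are the 5.9% of genes counted as higher and blue points the 9.75% counted as lower, and Gdf15, Slc41a1 and Plat lie far above the diagonal.

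Of the 10 genes with the largest folds in the other direction, 1 is a gene model without a protein name. Il33, an alarmin cytokine of the IL-1 family at chr19:29925114-29960718, had a read in 29 members (39.7%) and in 64.5% of other cells. Its levels were 0.167 ± 0.362 with a maximum of 1.30 in members and 0.634 ± 0.754 in other cells, so that it was 4.53 times lower, and lower in 10 of 10 blocks. Members were the lowest of the 6 classes for Il33 and for Snai1, a transcription factor that represses cell adhesion genes and was 4.92 times lower. Cyp4b1, a cytochrome P450 enzyme, was 3.83 times lower and Tgfbi, a TGF-β-induced matrix protein, 3.35 times lower. Myo5b, an unconventional myosin, Ch25h, which makes 25-hydroxycholesterol, Trp53i11, Tril and the endothelial surface lectin Clec14a were 3.22 to 3.49 times lower.

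The promoters of 4 of these genes are shown because the genes lay at the ends of the comparison and each window holds a motif that was searched. Each run is the RefSeq promoter on GRCm38.p6, 250 bases before to 50 bases after the start, the first listed where the table holds several, read 5′ to 3′ on the gene's strand, with matches in capitals.
Gdf15, chr8:70632407-70632706, minus strand: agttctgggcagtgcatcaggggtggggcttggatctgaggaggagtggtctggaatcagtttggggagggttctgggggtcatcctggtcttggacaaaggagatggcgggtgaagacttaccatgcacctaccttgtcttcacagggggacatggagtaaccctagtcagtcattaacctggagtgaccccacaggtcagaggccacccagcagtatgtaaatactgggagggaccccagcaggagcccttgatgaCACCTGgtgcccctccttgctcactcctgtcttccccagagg
Nupr1, chr7:126625421-126625720, minus strand: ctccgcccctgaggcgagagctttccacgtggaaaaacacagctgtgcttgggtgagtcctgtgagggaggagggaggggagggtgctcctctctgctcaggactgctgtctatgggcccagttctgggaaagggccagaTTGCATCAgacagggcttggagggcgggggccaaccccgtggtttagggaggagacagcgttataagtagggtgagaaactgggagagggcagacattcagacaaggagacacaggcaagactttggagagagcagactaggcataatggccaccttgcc
Lama5, chr2:180225810-180226109, minus strand: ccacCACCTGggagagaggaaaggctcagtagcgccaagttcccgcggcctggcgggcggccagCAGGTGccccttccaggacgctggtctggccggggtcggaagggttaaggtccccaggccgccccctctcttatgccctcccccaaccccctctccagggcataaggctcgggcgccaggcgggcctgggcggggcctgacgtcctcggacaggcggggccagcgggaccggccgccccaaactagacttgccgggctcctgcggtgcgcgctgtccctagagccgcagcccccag
Il33, chr19:29924863-29925162, plus strand: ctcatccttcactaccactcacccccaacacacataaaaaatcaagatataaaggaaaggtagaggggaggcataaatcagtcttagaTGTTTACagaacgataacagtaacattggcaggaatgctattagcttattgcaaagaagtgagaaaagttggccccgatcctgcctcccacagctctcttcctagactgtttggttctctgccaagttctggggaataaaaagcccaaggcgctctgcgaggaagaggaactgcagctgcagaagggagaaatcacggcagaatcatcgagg
The capitals mark the E-box CAGGTG or its reverse complement CACCTG in Gdf15 at 9 and in Lama5 at -246 and -186, an ATF4-CHOP-type TGATGNAA match in Nupr1 at -110, and a forkhead GTAAACA match in Il33 at -162, with positions counted from the start. Both strands were searched. The E-box was in 20.03% of 27025 promoters, TGATGNAA in 4.06%, and GTAAACA or ATAAACA in 7.91%. GATA letters were AGATAA, its variant AGATAG, then TGATAA and its variant TGATAG. They were in 30.2% of all promoters and in 2 of the 14 promoters found for the 20 higher genes. Of the 9 promoters found for the 10 lower genes 3 held them, and of the 4 found for the 5 markers 0 did. Those 4 promoters held 66.3 to 82.7% G and C, beside a median of 52.7% over all promoters. The E-box was in 2 of the 14 and 1 of the 9, TGATGNAA in 1 and 0, and forkhead letters in 1 and 3. The motif families were searched after the gene values were known, the GATA and forkhead matches in the Net1 promoter overlap, and a match is a description of these letters only.

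Of the 20 higher genes, 19 had their highest mean in the members with a lead of at least 1, and 15 had a lower mean in each step of falling lead. The genes were picked for their fold in these members and the lead comes from the rule's scores, so this order supports nothing. Slc41a1 had a read in 30 of 30 members with a lead of at least 1 at a mean level of 2.72 ± 1.11, and its mean was 1.49 ± 1.36 at a lead of 0.25 to 1, 1.03 ± 0.883 under 0.25 and 0.838 ± 0.928 in the 32 cells just outside. Gdf15 had means of 2.72 ± 1.62, 1.77 ± 1.67, 1.17 ± 1.35 and 0.811 ± 1.03 in the same order. Plat had a read in 30 of 30 members with a lead of at least 1, and its means were 2.54, 1.81, 1.16 and 0.580. For these 3 genes the members with a small lead lay nearer to the cells just outside than to the members with a large lead. Lama5 had no such order, with a read in 19 of 30, 4 of 22 and 7 of 21 members, and Atg101 ran the other way with means of 0.507, 0.808 and 0.910.

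Lyve1, the hyaluronan receptor of initial lymphatics, ran the opposite way. Its mean level was 0.606 ± 0.616 in members with a lead of at least 1, 1.44 ± 1.19 at 0.25 to 1, 1.86 ± 1.12 under 0.25 and 2.01 ± 1.18 just outside. Il33 was low in all 3 groups of members, with means of 0.10, 0.311 and 0.112, and had a mean of 0.512 just outside. Within members rho with the score was 0.59 for Slc41a1, 0.50 for Arl15, 0.49 for Odc1, 0.48 for Plat and -0.50 for Lyve1. The score had a rho of 0.23 with reads per cell, Lyve1 had -0.36 and Arl15 had 0.52, and the part of depth in these relations was not tested.

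**Figure D4:**
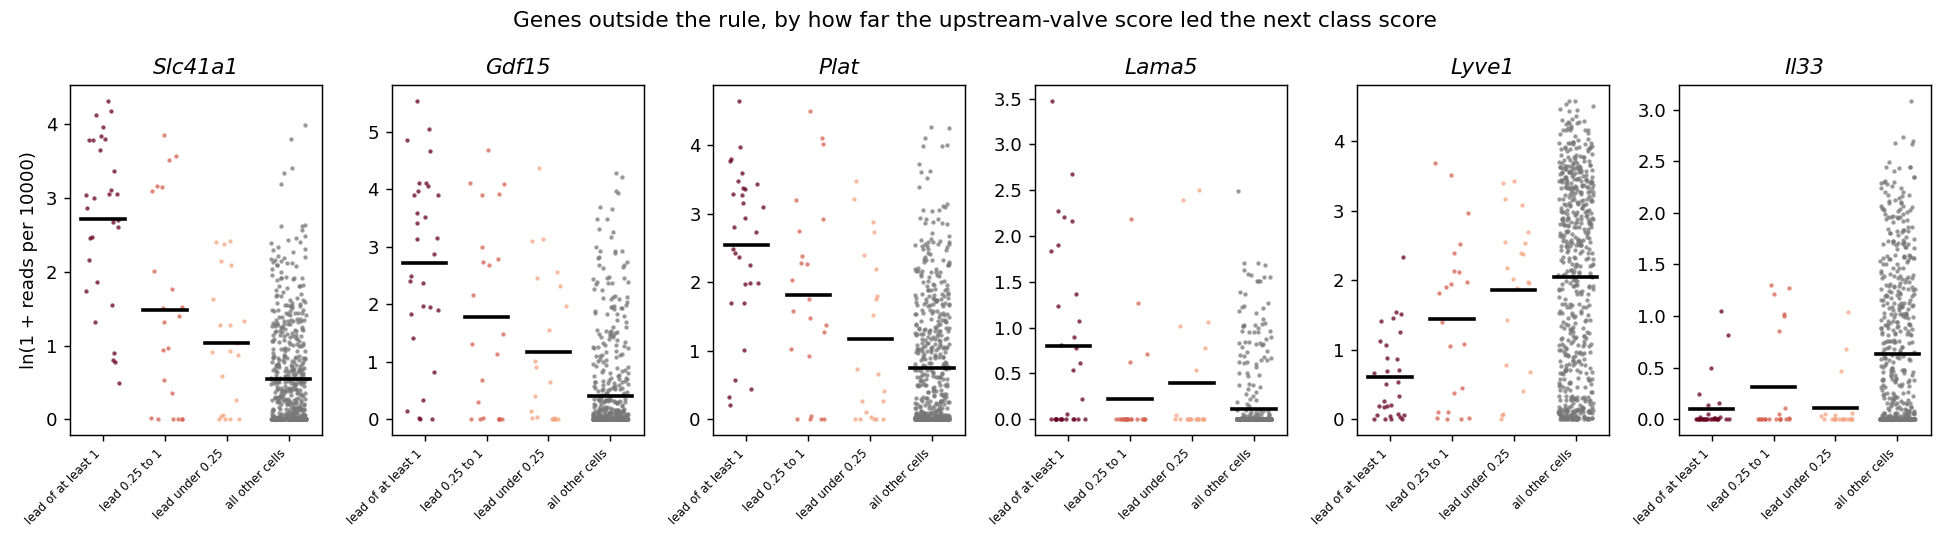
Each point is 1 cell, the vertical axis is the level as ln(1 + reads per 10000), black bars are means, and cells are split into 30, 22 and 21 members by falling lead of the upstream-valve score and all other cells. Slc41a1, Gdf15 and Plat are lower and Lyve1 is higher from left to right, whereas Il33 is low in all 3 groups of members.

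Clustering without any of the 31 rule genes asked whether the members shared expression that the rule had not used. With 1981 variable genes, 1 of 5 clusters held 47 of the 73 members (64.4%, 52.3 to 75.3%), and members made up 47 of its 100 cells. It held 28 of the 30 members with a lead of at least 1, 10 of 22 with a lead of 0.25 to 1 and 9 of 21 with a smaller lead. Of the other classes it held 21 Ptx3+ capillary-like, 15 Ptn-Anxa3-Stc1, 10 precollecting-like, 6 downstream-valve-like and 1 Ptx3- capillary-like cells. At a resolution of 1.5, a cluster of 48 cells held 40 members, 83.3% of its cells.

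Of the valve transcription factors listed, all 15 were considered and 1 was higher in members, a share close to the 5.9% over all genes. That gene was Prox1, with levels of 1.87 ± 0.653 in members and 1.44 ± 0.688 in other cells, a fold of 1.56 that was 1.49 at 20000 reads and thus just under the limit. Members had the highest mean of the 6 classes, ahead of Ptx3+ capillary-like cells at 1.60, and were higher in 10 of 10 blocks. Nfatc1, a calcium-regulated valve factor, was at 0.784 ± 0.642 in members and 0.618 ± 0.606 in other cells. Klf2 and Klf4, flow-induced factors, had folds of 0.931 and 1.19, and Foxc1 0.955. None of the 3 connexins considered was past 1.5 in either direction, among them Gja1, connexin 43, with a fold of 0.968.

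Junction, matrix and guidance genes were mixed. Esam was the 1 higher gene of 11 claudin and junction genes considered, and Cldn5, the main endothelial claudin, had a fold of 1.32. Of 22 matrix and integrin genes considered, 2 were higher and 6 lower, beside 5.9% higher and 9.75% lower over all genes. Fn1, fibronectin, had levels of 1.54 ± 1.06 in members and 0.895 ± 0.916 in other cells, a fold of 2.40, and Lama5 was the other. The lower genes included the basement-membrane linkers Nid1 (1.92 times) and Nid2 (2.38 times), the type XVIII collagen gene Col18a1 (2.21 times) and the matricellular gene Postn (2.03 times). Of 12 guidance genes, Sema3a, a repulsive semaphorin, was higher with a fold of 1.66 and 3 were lower, among them the receptors Nrp2 (1.82 times) and Robo4 (2.06 times). The mean level of Sema3a was 0.883 in members, and Ptn-Anxa3-Stc1 cells were close at 0.856.

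The ligands, receptors and partners of the marker proteins are given next, and their shares of higher genes are read against 5.9% over all genes and those of lower genes against 9.75%. Of 9 neogenin ligands and partners considered, 0 were higher and 4 lower, including the ligand Ntn1, netrin 1, at 1.03 ± 0.618 in members and 1.33 ± 0.806 in other cells (1.75 times lower) and the BMP type II receptor Bmpr2 (1.78 times lower). Of 16 BMP and TGF-β genes, 6 were lower, among them the receptors Tgfbr2 (1.58 times) and Acvr1 (1.69 times) and the ligand Bmp6 (2.60 times), and Acvr1 and Bmpr2 stand in both lists. The 1 higher gene, Acvr2a, had a fold of 1.83 that was 1.24 without the highest cell. Of 5 sodium-pump and FXYD genes, Fxyd5, which encodes dysadherin, was higher with a fold of 1.89 and Fxyd1, phospholemman, lower by 1.51 times. Fxyd5 had a mean level of 1.20 in members and 1.09 in Ptn-Anxa3-Stc1 cells. The pump subunit Atp1b3 had a fold of 1.12.

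Among 13 flow and mechanosensing genes, Nos3, the endothelial nitric oxide synthase, was the 1 higher gene and 3 were lower, beside 5.9% higher and 9.75% lower over all genes, and the lists in the next sentences have the same background. Its levels were 0.793 ± 0.684 in members and 0.450 ± 0.599 in other cells, a fold of 1.86 that held its direction in 10 of 10 blocks, and precollecting-like cells were close at 0.757. The lower genes were Ctgf, a YAP and TAZ target (3.05 times), the stretch channel Piezo2 (1.91 times) and the anticoagulant receptor Thbd (1.68 times). Piezo1 had a fold of 1.14. None of the 9 Notch genes considered was past the limit, and of the 8 planar-polarity genes Fat4 was lower (1.59 times) while Celsr1, which orients valve cells, had a fold of 1.44 that was 1.56 at 20000 reads, past the limit. Of 9 VEGF, Tie and adrenomedullin genes Ptprb, a phosphatase that restrains Tie2, was higher with a fold of 1.59.

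The list of capillary genes drew on knowledge of LECs in general, but it was chosen with earlier results of these data known. Of 10 considered, 0 were higher and 6 were lower, beside 5.9% higher and 9.75% lower over all genes, with a median log2 fold of -0.73 beside -0.02. Lyve1 was 2.93 times lower, with levels of 1.22 ± 1.10 and 2.05 ± 1.39, and precollecting-like cells were lower still at 1.11. Mmrn1, a matrix glycoprotein of LECs, was 1.85 times lower and was the lowest of the 6 classes in members at 3.02. The chemokine scavengers Ackr2 and Ackr4 were 2.14 and 3.33 times lower, but Ackr4 was highest in precollecting-like and lowest in Ptx3- capillary-like cells. Some rule genes of the capillary scores had to be low in members by the choice of cells. These 10 genes were not in the rule, but genes that vary with those scores can be low by the same choice. Lyve1, Mmrn1 and Ackr2 had their highest means in Ptx3- capillary-like cells, so their low levels are not separate support.

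Markers of other cell types are given next. Epcam, Krt8 and Krt18 had no read in any of the 73 members, which allows up to 4.11% of cells with a read when 3 cells are taken as the limit of a count of 0. Any of 7 haematopoietic markers had a read in 22 members (30.1%) and in 28.3% of other cells, with Ptprc at 0 in members. Any of 5 fibroblast markers had a read in 18 members (24.7%) and in 34.1% of other cells. For 6 mural markers it was 7 members (9.59%) and 7.03%, and for 3 glial markers 7 members (9.59%) and 7.20%. For 3 cycling markers it was 3 members (4.11%) and 4.97%. Their part in the results was not tested. The endothelial and LEC genes Pecam1 and Flt4 had a read in 73 of 73 members and Cdh5 in 71. Of 8 LEC identity genes, Prox1 was higher, Lyve1 and Mmrn1 were lower and 5 were not past the limit, beside 5.9% higher and 9.75% lower over all genes. Any of 9 blood endothelial markers had a read in 73 of 73 members, with Emcn in 95.9% and Aqp1 in 94.5% of members and each in 96.2% of other cells, and Vwf in 4.11% and 11.1%. Of the 6 considered, 5 were lower, including Aqp1 (2.89 times) and Vwf (2.69 times), beside 9.75% over all genes. The class with the highest mean was Ptx3+ capillary-like for Aqp1, Plvap and Selp and precollecting-like for Emcn and Vwf.

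Against the 63 downstream-valve-like cells, 1173 of 10291 genes (11.4%) were higher in members and 1428 (13.9%) lower. Gdf15 again had the largest fold, 13.7, followed by Tub (6.33), Angptl2 (6.31), Slc41a1 (5.27), Esam (4.19), Lama5 (4.17) and B4galt4 (4.12). Lpl, lipoprotein lipase, had a read in 42.5% of members and 20.6% of downstream-valve-like cells with a fold of 4.02. Pdlim4, a cytoskeletal adaptor, had a fold of 3.51 and levels of 1.67 ± 0.962 and 0.760 ± 0.760. This comparison shares its members with the one above, so genes common to both lists are not separate support. Of the gene lists, the valve transcription factors had 1 higher and 4 lower of 15, the capillary genes 0 higher and 4 lower of 10, and the ageing and interferon genes 0 higher and 7 lower of 20. Prox1 was at 1.58 ± 0.657 in downstream-valve-like cells, a fold of 1.35.

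The genes lower in members than in downstream-valve-like cells are given next, by the same rule. Steap4, a metalloreductase, had a read in 6.85% of members and 34.9% of downstream-valve-like cells and was 6.46 times lower. C3, complement component 3, was at 0.708 ± 0.976 and 1.43 ± 1.37, 3.73 times lower, and Il33 was 4.01 times lower. The interleukin 4 receptor chain Il4ra was 3.55 times lower, the serotonin receptor Htr2b 3.62 times and the growth-arrest gene Gadd45g 3.84 times. Snai1, Shroom2, which shapes the actin cortex, and Trim62 were 3.90 to 5.25 times lower. Spp1, osteopontin, was 5.80 times lower, but 1 member gave 51.7% of the members' sum.

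Of the 20 ageing and type I interferon genes, all were considered against all other cells, 0 were higher and 5 lower, beside 5.9% higher and 9.75% lower over all genes. Il33 apart, these were Ifit3 (2.02 times), Oasl2 (2.14 times), Zbp1 (1.54 times) and Rtp4 (1.52 times). Isg15 had a fold of 1.41, or 1.03 without the highest cell, and Irf7 of 0.901. The median log2 fold of the list was -0.27. Of 20 immediate-early and dissociation genes, which tissue digestion can induce, Nr4a1 was higher (1.57) and Hspa1a lower (1.53 times), and Fos was at 3.29 ± 1.67 in members and 3.37 ± 1.77 in other cells. Precollecting-like cells had the highest mean level of Nr4a1, 0.877 against 0.869 in members.

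The members were spread over the numbering of the cells. The labels name no plate, so consecutive blocks of 96 cell numbers were used as a possible technical unit. There were 10 blocks with 4 to 11 members each, at 4.82 to 19.6% of their cells, and the other 2 held none among 38 cells, where a limit of 3 cells leaves room for 7.89%. These 2 blocks stood apart in depth, with median reads per cell of 2.04e+06 and 2.45e+06 against 52583 to 231193 in the others. The comparisons within blocks do not use them, and without them 6.12% of genes were higher and 9.79% lower than in all other cells. Lama5 was higher in 8 of the 10 blocks with members, and its block means in members ran from 0 to 1.24. Slc41a1 had block means of 0.972 to 2.40 in members and 0.387 to 0.646 in the other cells of the same blocks, which did not overlap.

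**Figure D5:**
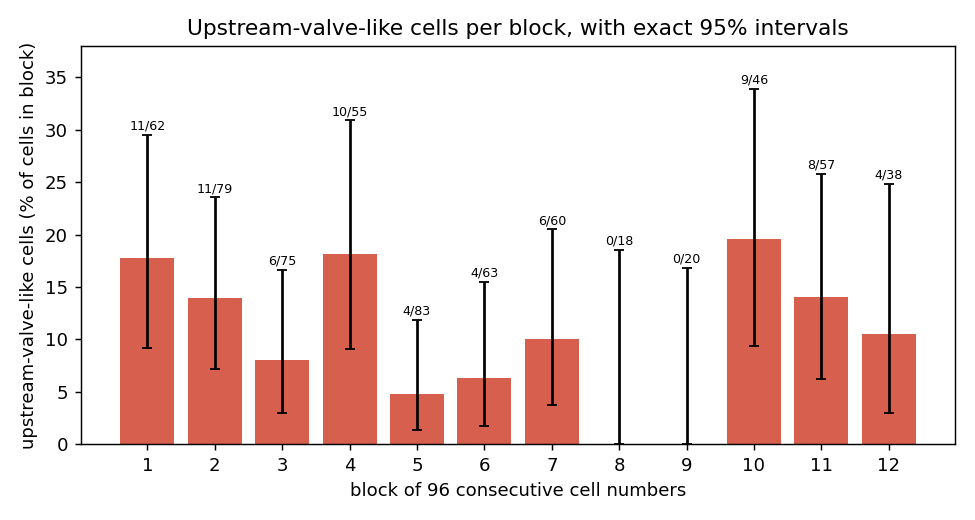
Bars give upstream-valve-like cells as a percentage of the cells in each block of 96 consecutive cell numbers, whiskers are exact 95% intervals, and labels give members over cells. Members make up 4.82 to 19.6% of 10 blocks and none of blocks 8 and 9.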

How the data were processed

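Single CD31+ PDPN+ cells from pooled nasopharyngeal mucosa of aged mice were measured in 1 group. According to the study's methods and the labels, the authors used STAR with the mm10 build and featureCounts for gene counts, kept cells with at least 2000 genes and at most 10% mitochondrial reads, and normalized with Seurat 4.1.0. PCR copies were not collapsed and the strand setting is not given in the sources used here. The deposited values are the natural log of 1 plus reads per 10000: their exponentials minus 1 sum to 10000 in every cell, although the methods give log2. Dividing by the lowest value of each cell gave whole reads for 100% of values within 0.01 reads.

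The members and gene lists were chosen with earlier results of these data known. Scores, folds, exact Clopper-Pearson intervals and thinning to 20000 reads were computed in Python 3.11.15 with scipy 1.17.1, and clustering in Seurat 5.3.0 with R 4.3.3, regressing reads, mitochondrial share and module scores. The rule and the fold counts were also run on simulated data, and the outcome is not given here. Named were the markers, list genes, the 20 highest and 10 lowest genes against all other cells, and the 10 highest and 10 lowest against downstream-valve-like cells, outside the rule genes and with a read in at least 30% of the higher side. Of these, 1 gene and 1 list gene are not reported here. Wells held 1 sorted cell each, and doublets were not called. Alternatives changed the scoring, markers, depth, added value, detection limit, fold limit and clustering. Gene positions are from GENCODE on GRCm38, promoters from RefSeq on GRCm38.p6.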

Additional observations from a re-analysis of the deposited data

How the results depend on the processing

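The share of upstream-valve-like cells, 11.1%, was 15.1% with z-scores of detection, 14.3% with z-scores of ranks and 7.93% with a lead of at least 0.25. The cause was not tested for the first 2, and the last removes members by construction. It stayed within its interval under 10 other alternatives, which capped z-scores, thinned reads, left out each marker in turn, or left out cells by detected genes, haematopoietic markers or sex-linked reads. With z-scores of detection, 54 of the 73 members were kept. Leaving out the 2 deep blocks without members was added after the data were seen. It gave 11.3% and kept 70 members, and gene shares moved to 6.12% and 9.79%, and to 11.9% and 14.6% against downstream-valve-like cells.

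Of the 10131 genes considered against all other cells, 5.9% were higher and 9.75% lower. With 1 added to both means these were 0.632% and 0.957%, with means of natural log values 0.474% and 0.474%, and with a fold of 2 they were 1.09% and 2.25%. Against downstream-valve-like cells, 11.4% and 13.9% became 0.661% and 0.943%, 0.466% and 0.389%, and 2.96% and 3.96% in the same order. With thinned reads, no limit on detection or a lead of at least 0.25 the number of genes stayed within 1.5 times, although more or fewer genes were considered, so that 9.17% were higher than in all other cells with thinned reads and 3.55% with no limit. Added values and log means shrink differences of genes with low levels by construction, and a fold of 2 is stricter. Of the 30 genes with the largest folds against all other cells, 26 stayed past 1.5 with 1 added, 16 with means of natural logs and 30 with thinned reads, and none changed direction in these alternatives. The share of members in the cluster that held most of them, 64.4%, was 49.3% without regression, and the cause was not tested. Depth limited the detection of low genes most in the 14 members under 20000 reads. No paired analysis was possible because there was 1 group. No replicate could be left out.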

Other observations

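Slit3, a secreted ligand of Robo receptors, missed the detection limit but was nearly absent elsewhere. It had a read in 7 of 73 members (9.59%, 3.94 to 18.8%) and in 0.343% of other cells, with none in downstream-valve-like cells, and was higher in members in 6 of 10 blocks. It was singled out after its values were seen, and no test was run.

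Xist had a read in 63 of 73 members, and 0 members had a read of Ddx3y, Uty, Kdm5d or Eif2s3y, with an exact upper bound of 4.93%. Of the other cells, 4 had both Xist and a Y-linked read and 0 had a Y-linked read alone. The methods state that mice of both sexes were used.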
